A study of Homo sapiens with 5 samples.

Results

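The 10 tubulin genes described here are the alpha-tubulins TUBA1A, TUBA1B and TUBA1C and the beta-tubulins TUBB, TUBB2A, TUBB2B, TUBB3, TUBB4A, TUBB4B and TUBB6. They were taken by symbol, and each had 1 row in all 8 libraries, among 36601 genes in 5 of the libraries and 33538 in the other 3. The series followed WA09 human embryonic stem cells, an established line of wild-type genotype, through differentiation towards neurons that make gonadotropin-releasing hormone (GnRH), by droplet single-cell RNA sequencing. D0 held the undifferentiated cells. The libraries D5_dSMADi and D10_dSMADi held cells after 5 and 10 days of dual SMAD inhibition, which blocks BMP and TGF-beta signalling and directs stem cells to a neural fate. D5_XAV939 and D10_XAV939 had the same treatment with 10 μM XAV939, a tankyrase inhibitor that lowers Wnt signalling. The libraries D22, D24 and D26 came from cultures that had passed through dual SMAD inhibition, FGF8, a freeze and thaw, and last DAPT, an inhibitor of Notch signalling, and they had no XAV939. Each condition was 1 library of 1 line, so no comparison below has a replicate, no test was possible, and every interval covers counting error alone.

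Microtubules are hollow polymers of paired alpha- and beta-tubulin. They pull chromosomes apart in the mitotic spindle and form the tracks and struts of axons and dendrites. Vertebrates carry several genes for each subunit, called isotypes, whose proteins are nearly alike and differ most in the acidic tail. TUBA1A, TUBB2A, TUBB2B and TUBB3 are known as isotypes of developing neurons, TUBB4A of mature brain, and TUBA1B, TUBA1C, TUBB, TUBB4B and TUBB6 are found in many tissues. Mutations in TUBA1A, TUBB2B and TUBB3 cause malformations of the human cortex, and TUBB3 protein is the antigen of a widely used antibody for young neurons.

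The genes lie on 6 chromosomes of GRCh38. The alpha-tubulins sit close together on chromosome 12, with TUBA1A at 49184686 to 49189080 and TUBA1B at 49127782 to 49131397 on the minus strand and TUBA1C at 49188736 to 49274600 on the plus strand. TUBB2A at 3153497 to 3157544 and TUBB2B at 3223324 to 3231730, both on the minus strand, are neighbours on chromosome 6, where TUBB lies farther along at 30717435 to 30725538 on the plus strand. TUBB3 is on the plus strand of chromosome 16 at 89921392 to 89938761. TUBB4A is on chromosome 19, TUBB4B on chromosome 9 and TUBB6 on chromosome 18.

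Promoter sequences are shown for 3 pairs that the results below set against each other: TUBA1A and TUBA1B, which changed places as the leading alpha-tubulin, the paralogs TUBB2A and TUBB2B, and TUBA1C and TUBB4B, 2 of the genes highest in dividing cells. Each is the 250 bases before the transcription start in RefSeq on GRCh38.p14, read 5′ to 3′ on the strand of the gene. RefSeq held such windows for 10 of the 10 genes. Capitals mark 5 motifs, searched on both strands and chosen after the levels were known: the CCAAT box, the cell cycle homology region (TTTGAA or TTCGAA), the E-boxes CAGATG and CAGCTG, and the TATA box TATAAA. No site overlapped another in these windows.
TUBA1A, chr12:49189081-49189330, minus strand: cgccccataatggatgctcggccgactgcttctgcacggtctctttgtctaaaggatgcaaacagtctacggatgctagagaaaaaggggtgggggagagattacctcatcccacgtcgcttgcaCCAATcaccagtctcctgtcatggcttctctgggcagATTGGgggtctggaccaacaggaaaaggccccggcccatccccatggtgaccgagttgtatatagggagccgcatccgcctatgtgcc
TUBA1B, chr12:49131396-49131645, minus strand: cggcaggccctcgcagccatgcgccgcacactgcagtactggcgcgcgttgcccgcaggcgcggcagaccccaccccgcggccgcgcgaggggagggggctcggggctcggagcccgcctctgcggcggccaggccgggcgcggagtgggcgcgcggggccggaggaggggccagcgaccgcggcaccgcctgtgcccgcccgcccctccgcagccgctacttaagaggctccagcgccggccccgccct
TUBA1C, chr12:49264832-49265081, plus strand: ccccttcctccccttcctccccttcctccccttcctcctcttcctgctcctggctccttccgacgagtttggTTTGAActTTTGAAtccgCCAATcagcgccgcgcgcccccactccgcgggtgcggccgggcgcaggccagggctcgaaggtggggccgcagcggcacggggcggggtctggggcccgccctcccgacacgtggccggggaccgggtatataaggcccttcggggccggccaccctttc
TUBB2A, chr6:3157545-3157794, minus strand: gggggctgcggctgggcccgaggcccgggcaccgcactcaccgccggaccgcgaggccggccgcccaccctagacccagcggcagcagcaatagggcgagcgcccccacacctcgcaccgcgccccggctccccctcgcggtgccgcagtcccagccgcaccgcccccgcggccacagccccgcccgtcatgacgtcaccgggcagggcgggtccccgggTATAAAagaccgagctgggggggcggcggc
TUBB2B, chr6:3227654-3227903, minus strand: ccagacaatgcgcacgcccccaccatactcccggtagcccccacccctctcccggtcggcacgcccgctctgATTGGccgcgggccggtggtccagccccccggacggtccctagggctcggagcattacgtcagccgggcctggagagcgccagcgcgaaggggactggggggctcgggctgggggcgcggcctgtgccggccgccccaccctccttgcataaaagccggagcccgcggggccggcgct
TUBB4B, chr9:137241037-137241286, plus strand: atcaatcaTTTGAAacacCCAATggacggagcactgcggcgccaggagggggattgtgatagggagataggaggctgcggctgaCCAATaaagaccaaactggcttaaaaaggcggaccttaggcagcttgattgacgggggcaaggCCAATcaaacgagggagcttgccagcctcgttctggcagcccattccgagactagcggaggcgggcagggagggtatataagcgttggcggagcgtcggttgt

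TUBA1A had 2 CCAAT boxes, TUBB4B 3, and TUBB2B and this start of TUBA1C 1 each, and 32% of all 35116 RefSeq promoters of the same length held 1 or more. The cell cycle homology region was found at 2 places in TUBA1C, 178 and 170 bases before the transcription start, and at 1 in TUBB4B, 242 bases before it, against 14.3% of all promoters. The other 2 TUBA1C starts in RefSeq held 1 and 0 such sites, and neither window of TUBB6 held one, nor did that of TUBA1B, while 1 of the 2 windows of TUBB3 held 1. TUBB2A had the exact letters TATAAA, 30 bases before the start, which 10.7% of promoters held. Variants of the TATA box were not searched, so windows without capitals there may still hold one. TUBA1B had none of the motifs, and neither E-box (12.2% for CAGATG and 14% for CAGCTG) occurred in the 6 windows. A match is a description of the letters and no evidence that a factor binds.

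After the study's limits on cells, the libraries held between 1008 cells at D0 and 11056 at D26, with 58073098 to 130440502 UMIs (unique molecular identifiers, which count captured transcripts) per library. The median cell had 69455.5 UMIs at D0, 24290.5 to 31112.5 at D5 and D10 and 7180 to 12179 at D22 to D26. D0, D5 and D10 were tagged, pooled and run together, and D22, D24 and D26 were 3 runs of their own, counted with an older annotation, so ratios were taken only within each of these sets. No barcode was shared between libraries of the pooled run, and 27 to 37 were shared by pairs of D22, D24 and D26. The labels call the pooled cells neural progenitors and the later cells neurons. The sum of 5 pluripotency markers was 2715 CPM (UMIs scaled to a common library total) at D0 and 62.3 at D22, and that of 5 neuron markers 46.1 at D0, 2085 at D22, 12171 at D24 and 12255 at D26. So the neuron label covered D24 and D26 more fully than D22, where 2043 of 9523 cells passed the gate for dividing cells used below. Astrocyte markers (3 genes) stayed at or below 2.57 CPM in all 8 libraries.

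The 10 genes together made up 0.516% of all UMIs at D0, 0.457% at D5_dSMADi, 0.524% at D5_XAV939, 0.493% at D10_dSMADi and 0.655% at D10_XAV939. They made up 0.755% at D22, 1.79% at D24 and 1.90% at D26. Tubulin transcripts thus made up more of the captured molecules at D24 and D26 than in any earlier library. Since the early and late libraries came from different runs and annotations, their values stand side by side here and were not compared by ratio. In the median cell the share ran from 0.382% of its UMIs at D5_dSMADi to 1.77% at D24 and 1.84% at D26, with D0 (0.4905%) above D5_XAV939 (0.465%) there. UMIs are counted at the 3′ end, so levels of different genes were compared without a length correction.

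TUBA1A was at 374 CPM at D0, 829.7 at D5_dSMADi, 1109 at D5_XAV939, 852 at D10_dSMADi and 1509 at D10_XAV939, and at 3207, 9672 and 9401 at D22, D24 and D26. The counting intervals of no 2 libraries overlapped, and D24 was the highest. TUBA1B, the alpha-tubulin of most proliferating cells, was at 1769, 1464, 1773, 1656 and 2230 CPM in D0, D5_dSMADi, D5_XAV939, D10_dSMADi and D10_XAV939, and at 1201, 452 and 578 CPM in D22, D24 and D26. For TUBA1B the intervals of D0 (1759 to 1778) and D5_XAV939 (1764 to 1782) overlapped, and D24 was the lowest. TUBA1C was at 388 CPM at D0, 224 and 191 at D5_dSMADi and D5_XAV939, 190.0 and 145 at D10_dSMADi and D10_XAV939, 73.0 at D22, and only 1.57 and 2.89 at D24 and D26. TUBA1C was thus all but missing from the D24 and D26 libraries, with 110 and 287 UMIs in all.

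**Figure D1:**
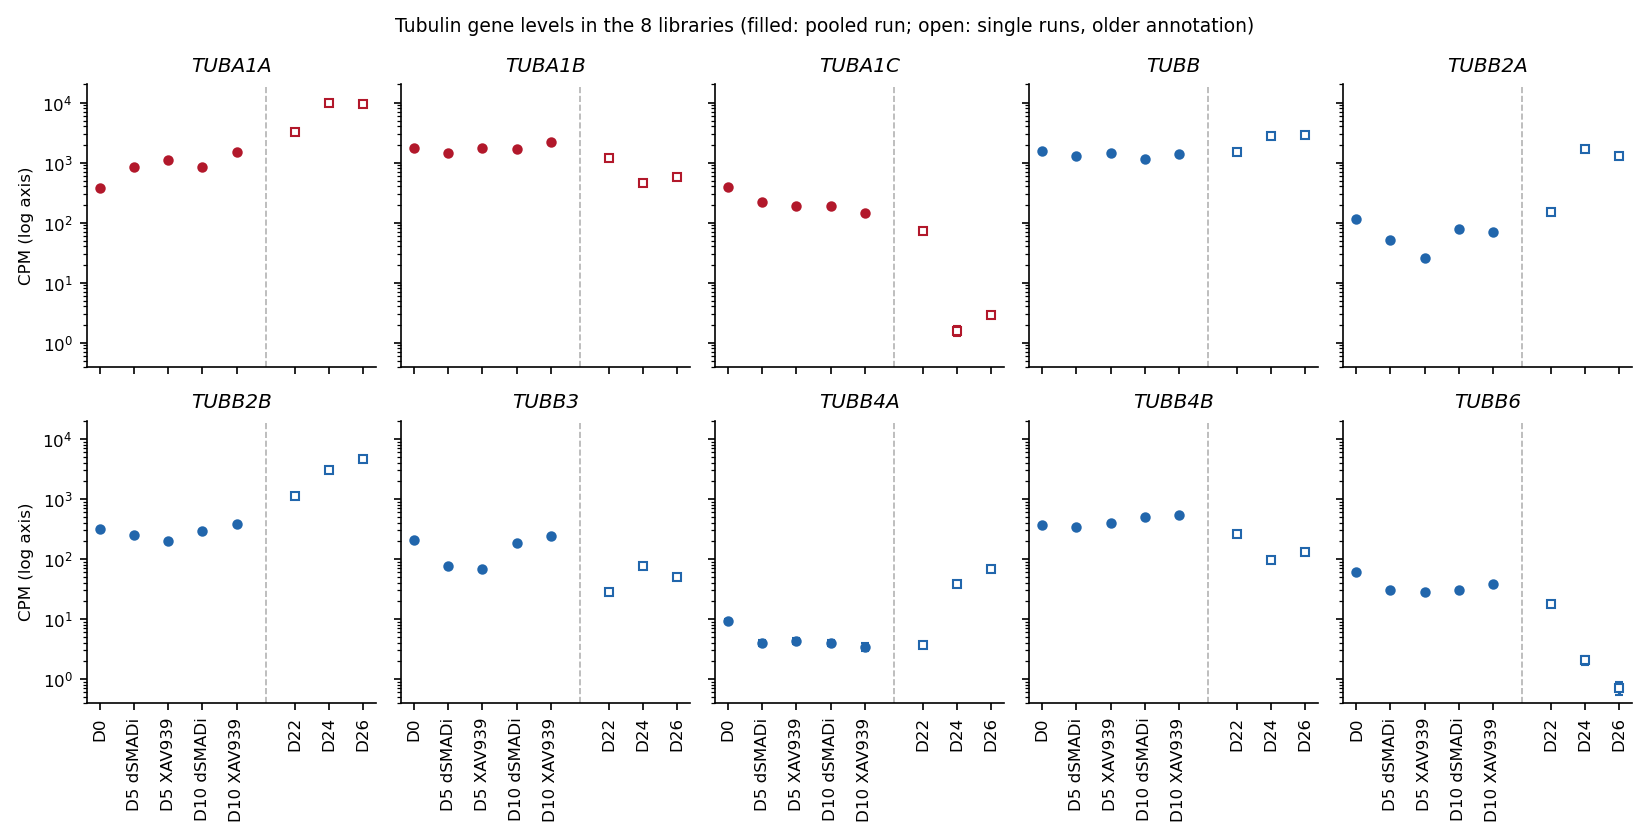
Level of each of the 10 tubulin genes in the 8 libraries, in CPM on a log axis with 95% counting intervals, mostly smaller than the points; filled points are the pooled run, open points the single runs with the older annotation. TUBA1A is at 374 CPM at D0 and 9672 at D24, and TUBA1C at 388 and 1.57.

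Of the UMIs of TUBA1A and TUBA1B together, TUBA1A held 17.5% at D0, 36.2% and 38.5% at D5_dSMADi and D5_XAV939, and 34.0% and 40.4% at D10_dSMADi and D10_XAV939. It held 72.8% at D22, 95.5% at D24 and 94.2% at D26. So the leading alpha-tubulin was TUBA1B in the 5 early libraries and TUBA1A in the 3 late ones. Among single cells with 5 or more UMIs of the pair, TUBA1A had more UMIs than TUBA1B in 0% of the 1008 D0 cells, in 33.9% and 30.8% at D5_dSMADi and D5_XAV939 and in 16.1% and 18.2% at D10_dSMADi and D10_XAV939. It had more in 83.6% of the D22 cells and fewer in 15.7%, and more in 99.8% at D24 and 99.98% at D26. So the D5, D10 and D22 libraries were mixed from cell to cell, and D0, D24 and D26 were close to uniform. All alpha-tubulins together spanned a narrower range as a share of the 10 genes, with 49.1% at D0, 55.1% and 58.6% at D5, 54.8% and 59.3% at D10, and 59.4%, 56.7% and 52.5% at D22, D24 and D26. The 10 genes include TUBB3, whose count at D22 to D26 has a limit described below.

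**Figure D2:**
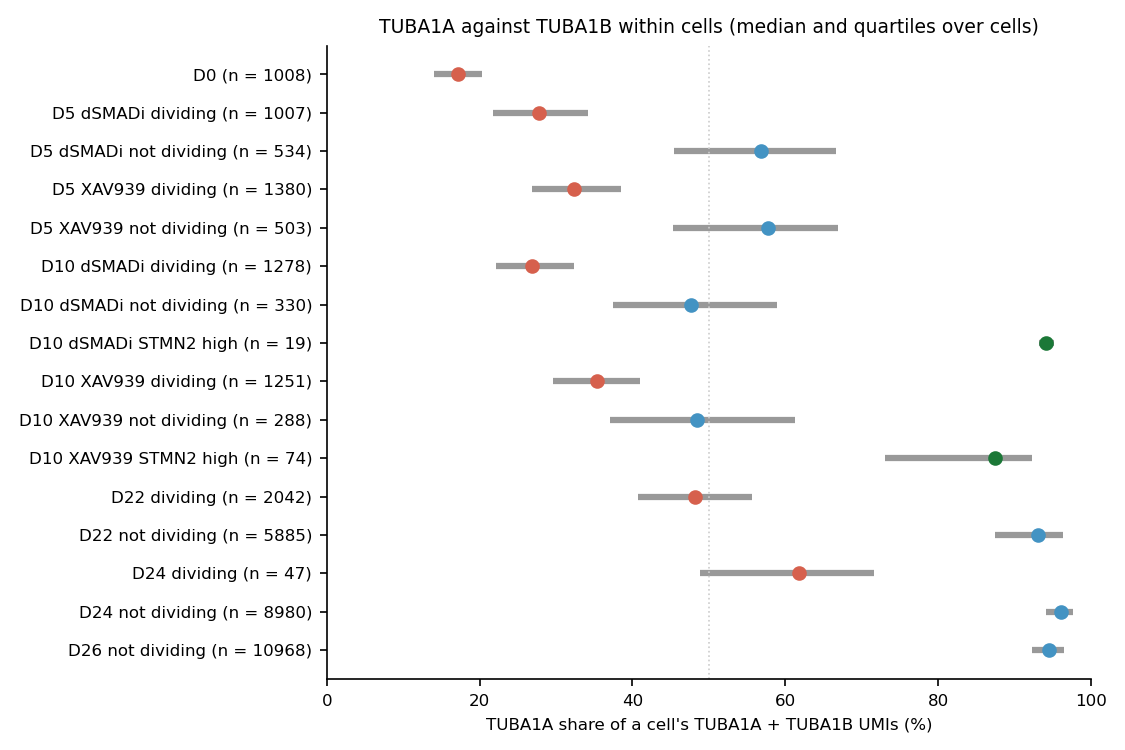
Percent of the UMIs of TUBA1A and TUBA1B that came from TUBA1A within a cell, as the median (point) and quartiles (bar) over cells with 5 or more UMIs of the pair, by library and by gate: dividing cells (and D0) in red, cells with no MKI67 or TOP2A UMI in blue and STMN2-high cells in green. The median cell is at 17.2% at D0, 48.1% among dividing and 93.1% among non-dividing D22 cells, and 94.1% and 87.5% in the STMN2-high cells of D10_dSMADi and D10_XAV939.

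TUBB was the most abundant beta-tubulin in the 6 libraries through D22, at 1547 CPM at D0, 1299 and 1443 at D5_dSMADi and D5_XAV939, 1147 and 1403 at D10_dSMADi and D10_XAV939, and 1502 at D22. It was at 2797 and 2930 CPM at D24 and D26. TUBB2B was at 316 CPM at D0, between 201 and 376 at D5 and D10, and at 1107, 3048 and 4561 at D22, D24 and D26, where it passed TUBB. As a share of the beta-tubulin UMIs, TUBB held 58.9% at D0, 48.9% at D22 and 32.4% at D26, and TUBB2B 12.04%, 36.1% and 50.5%. The total behind these shares includes TUBB3, whose count at D22 to D26 has a limit described below. The late shares of TUBB and TUBB2B may be too high for that reason, which was not tested.

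TUBB2A was at 116 CPM at D0, 52.1 and 25.6 at D5_dSMADi and D5_XAV939, 78.1 and 69.9 at D10_dSMADi and D10_XAV939, 152 at D22, 1675 at D24 and 1296 at D26. TUBB4A, which is enriched in mature neurons and oligodendrocytes, was below 10 CPM in the 6 libraries through D22 and at 38.0 and 68.2 CPM at D24 and D26. These 2 genes had their highest levels in the neuron-rich libraries. TUBB4B, abundant in dividing and in ciliated cells, was at 372 CPM at D0, 341 to 536 at D5 and D10, 259 at D22, 94.1 at D24 and 131 at D26. TUBB6 was at 60.4 CPM at D0, 28.1 to 38.0 at D5 and D10, 18.0 at D22, and 2.04 and 0.704 at D24 and D26.

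TUBB3 was at 204 CPM at D0, 74.95 and 67.1 at D5_dSMADi and D5_XAV939, 183 and 237 at D10_dSMADi and D10_XAV939, and 28.5, 77.0 and 49.4 at D22, D24 and D26. The order of these levels across the runs cannot be read, because a limit of the counting touches TUBB3 directly. The annotation used for D22, D24 and D26 lists a readthrough gene, AC092143.1, that runs through TUBB3 on the same strand and shares 1584 of the 1706 bases of the TUBB3 transcript and 99.6% of its last exon. The gene is not among the rows of the pooled run. It had 0 UMIs in D22, D24 and D26, where TUBB3 itself had 3714, 5404 and 4913. Cell Ranger leaves out reads that fall in exons of more than 1 gene, and 98.8% of the 89-base windows in the last 500 bases of TUBB3 also lie in the readthrough gene. The part this plays in the TUBB3 values was not tested, and TUBB3 ratios were taken only among D22, D24 and D26 or within the pooled run. TUBB3 was also a small share of the beta-tubulins there, at 0.928%, 0.996% and 0.547%. With TUBB3 left out of the list, the alpha share was 51.1% in place of 49.1% at D0, 61.6% in place of 59.3% at D10_XAV939 and 57.0% in place of 56.7% at D24. Few TUBB3 UMIs were counted at D24, so leaving them out cannot show the effect of reads that were never counted. In the STMN2-high cells described below, the alpha share was 65.0% in place of 50.9% at D10_dSMADi and 66.5% in place of 49.7% at D10_XAV939.

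**Figure D3:**
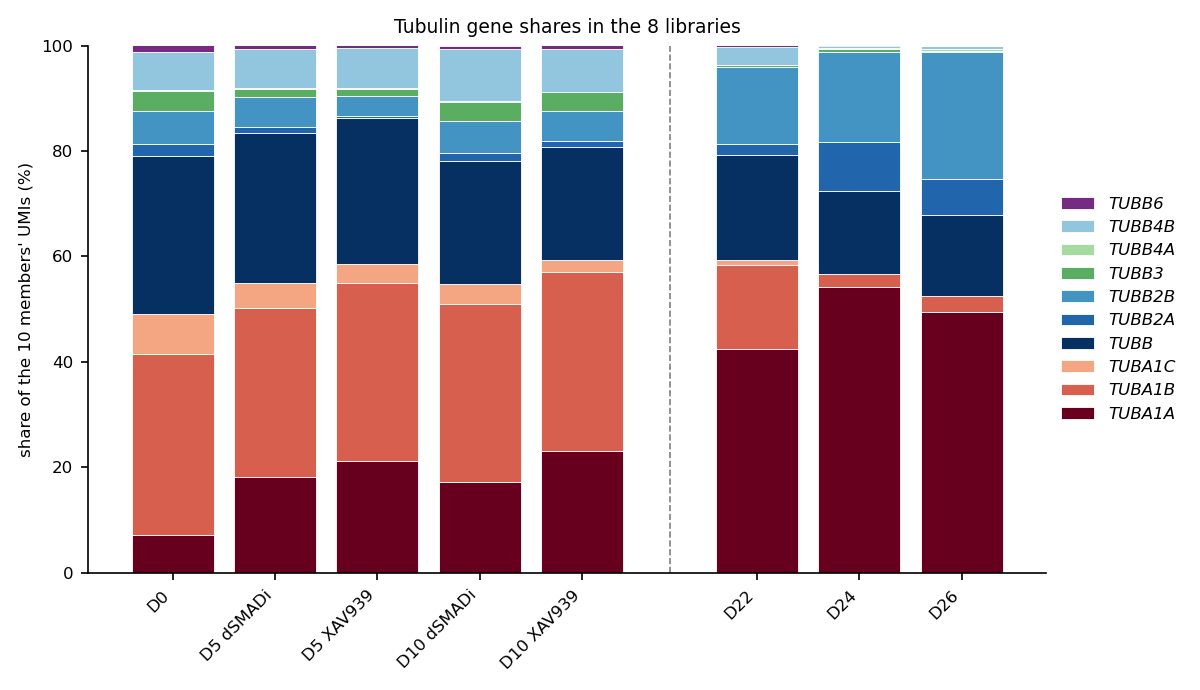
Share of each gene, in percent, in the summed UMIs of the 10 tubulin genes, as stacked bars for the 8 libraries; a dashed line parts the pooled run from the single runs. TUBA1B and TUBB are the widest bands at D0, with 34.3% and 30.01%, and TUBA1A and TUBB2B at D26, with 49.4% and 23.98%. The annotations on the sides of the line differ over TUBB3, as described above.

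Close sequence similarity limits the other isotypes less evenly. In the last 500 bases, where 3′ reads fall, 51.2% of the 89-base windows of TUBB2A also occurred elsewhere in the genome, as did 34.2% of those of TUBA1B, 14.1% of TUBB3, 13.4% of TUBB4B and 10.4% of TUBA1A, and 0% of the other 5 genes. Cell Ranger leaves out reads that map equally well to exons of several genes, so the levels of TUBB2A and TUBA1B are the least certain against other genes. Ratios of the same gene between libraries with the same annotation share this limit on both sides. Genes on the other strand overlap 6 of the 10. The antisense gene over TUBA1B, AC011603.2, held at most 1.87% of the UMIs of that pair, whereas AC010503.1, over TUBB4A, held 13.3% of the UMIs of its pair at D24, 7.45% at D22 and 4.14% at D26.

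At D22 dividing and non-dividing cells stood side by side in 1 library. Cells with 5 or more UMIs of MKI67 and TOP2A together, which are made in the later cell cycle, numbered 2043, with a median of 17361 UMIs, and 5898 cells with 0 had a median of 11724.5. A further 1582 cells had 1 to 4 and were set aside. The sum of 5 other division markers (CCNB1, CCNB2, CDK1, UBE2C and NUSAP1) was 2966 CPM in the dividing cells and 88.1 in the others, and the sum of 5 neuron markers was 529 and 3092 CPM. Of 9 members that reached 10 CPM in either set, 4 were at least 1.5-fold higher in dividing cells and 3 at least 1.5-fold lower, while of 8257 genes at that level 14% were higher and 12.4% lower. TUBB6 reached 10 CPM only in the dividing cells, so it could be counted only through the set where it was high. Among all those genes the median log2 ratio was -0.02, and among the members it was 0.31.

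TUBA1B was at 2811 CPM in dividing cells against 392 elsewhere (log2 ratio 2.84, 95% interval 2.82 to 2.86). TUBA1C was at 205 and 15.2 CPM (log2 3.75, 3.66 to 3.84), and TUBB6 at 51.9 and 3.90 CPM (log2 3.74, 3.56 to 3.92). TUBB4B was at 633 and 114 CPM (log2 2.47, 2.44 to 2.51). These 4 genes, all of the widely expressed kind, were between 5.55 and 13.5 times as abundant in the dividing cells. TUBB was close to level, at 1783 and 1437 CPM (log2 0.31, 0.30 to 0.32).

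TUBA1A went the other way but little, at 2794 CPM in dividing cells and 3565 in the others (log2 -0.35, -0.36 to -0.34). TUBB2B was at 808 and 1311 CPM (log2 -0.70, -0.72 to -0.68), TUBB3 at 19.4 and 33.8 (log2 -0.80, -0.92 to -0.68) and TUBB2A at 80.4 and 203 (log2 -1.34, -1.39 to -1.28). TUBB3 lost the 1.5-fold difference when each cell was thinned to 1500 UMIs and gated again, which left 395 dividing and 7551 non-dividing cells. TUBB4A stayed below 10 CPM in both sets, at 1.13 and 5.36. So 4 of the 5 widely expressed isotypes were past 1.5-fold higher in dividing cells, TUBB being the exception, and 3 of the 4 isotypes of developing neurons were past it lower, TUBA1A being the exception. TUBB6, 1 of the 4 higher isotypes, was counted only through the dividing cells. The 10 summed genes differed by only 0.38 on the log2 scale, with 9187 against 7080 CPM.

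As shares of the 10 genes, TUBA1B made up 30.6% (30.4% to 30.8%) in dividing cells and 5.54% (5.473% to 5.599%) in the others, and TUBA1A 30.4% (30.3% to 30.6%) and 50.4% (50.2% to 50.5%). TUBB barely differed, at 19.4% and 20.3%. In single cells TUBA1A exceeded TUBA1B in 43.2% of 2042 dividing cells and in 98.5% of 5885 that were not dividing. With every cell thinned to 1500 UMIs, TUBA1B was seen in 97.5% of dividing and 36.3% of the other cells (100% and 88.6% unthinned), and TUBA1C in 22.7% and 2.00% (66.5% and 15.0%). No cell class in these libraries is known to lack tubulin, so free RNA in the droplets could not be measured from these genes.

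Split more finely, the genes did not all follow the marker UMIs in the same way. TUBA1B was at 392, 1148, 2586 and 2932 CPM in cells with 0, 1 to 4, 5 to 19 and 20 or more UMIs of MKI67 and TOP2A, the last 2 sets holding 928 and 1115 cells. TUBB4B was at 114, 93.9, 260 and 834 CPM in the same sets, so its level was highest in the cells with the most marker UMIs and did not differ much between the sets with 0 and with 1 to 4. TUBA1C was at 15.2, 38.6, 126 and 248 CPM and TUBB6 at 3.90, 6.35, 25.7 and 66.1, higher in each set than in the one before. TUBA1A was at 3565, 2691, 2630 and 2883 CPM, with its highest level in the cells without marker UMIs. TUBB2A, at 203, 101, 80.7 and 80.2 CPM, was likewise highest in the cells without marker UMIs and, unlike TUBA1A, was no higher in the last set than in the one before.

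**Figure D4:**
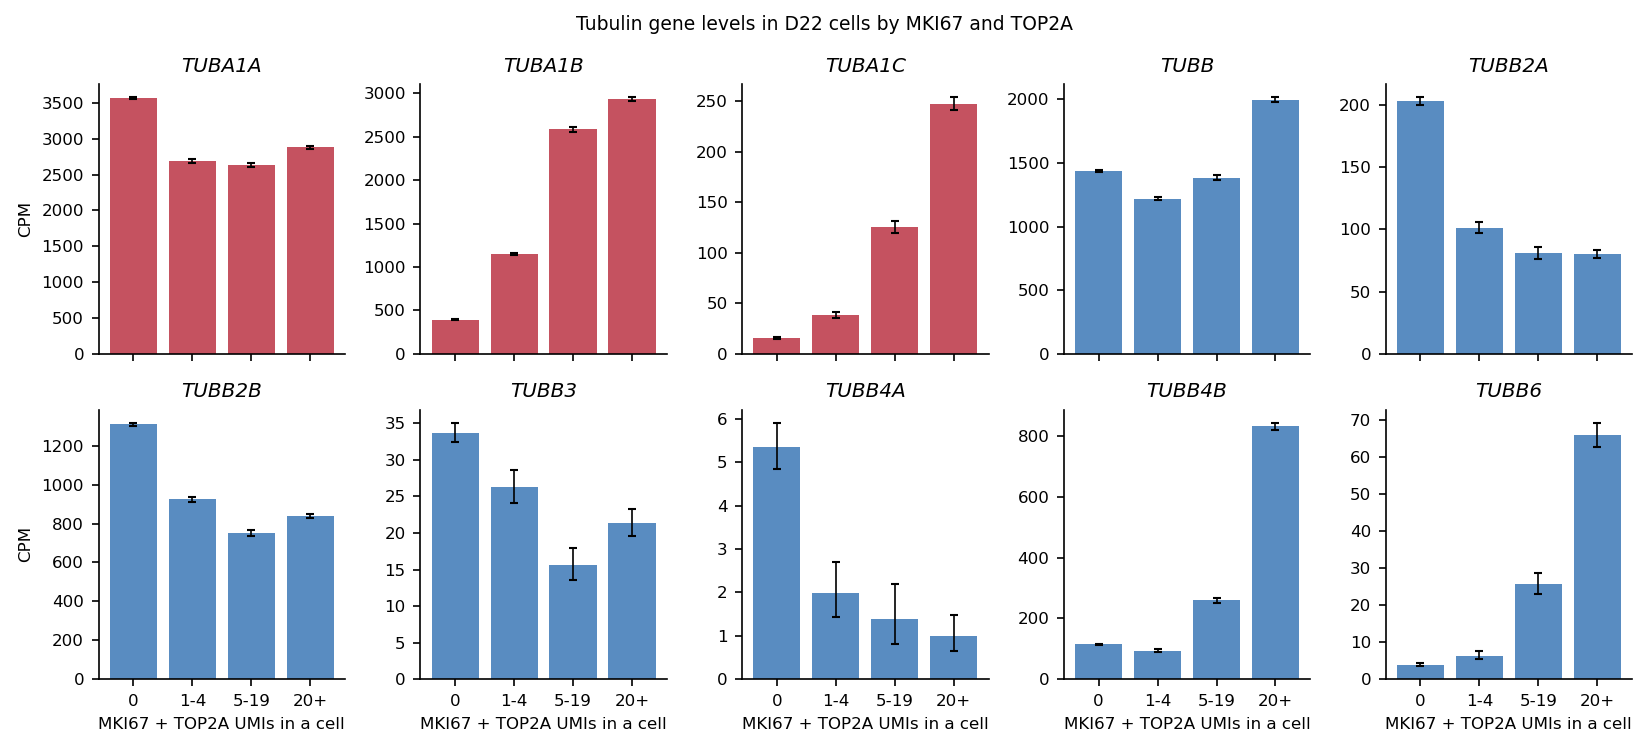
Level of each tubulin gene in D22 cells grouped by their MKI67 and TOP2A UMIs (0, 1 to 4, 5 to 19, 20 or more), as bars in CPM on a linear axis of its own for each gene, with 95% counting intervals. TUBA1B goes from 392 to 2932 CPM, TUBB4B stands highest in the last group, at 834, and TUBA1A lies between 2630 and 3565.

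The same gate could be set at D5 and D10, in another run and before neurons were common. These libraries were deeper than D22, so the same number of UMIs is a looser limit here. Dividing and non-dividing cells numbered 1007 and 534 at D5_dSMADi and 1380 and 503 at D5_XAV939. At D10_dSMADi they numbered 1278 and 330, and at D10_XAV939 1251 and 288. Their median depths were 38974 and 24643 UMIs, 34117 and 20744, 36846.5 and 25057, and 30041 and 17838 in the same order. TUBA1B was at 2093 CPM in dividing and 694 in non-dividing D5_dSMADi cells, at 2283 and 885 at D5_XAV939, at 1973 and 1127 at D10_dSMADi, and at 2571 and 1334 at D10_XAV939. TUBB4B was at 513 and 148 CPM at D5_dSMADi, 566 and 136 at D5_XAV939, 681 and 217 at D10_dSMADi, and 702 and 178 at D10_XAV939. TUBA1C was at 338 and 98.9 CPM, 272 and 65.3, 265 and 74.5, and 192 and 47.7 in the same order. These 3 genes were past 1.5-fold higher in the dividing cells of all 4 libraries. TUBB6, the other gene of the D22 set, was at 37.8 and 25.9 CPM at D5_dSMADi, within 1.5-fold, and at 33.9 and 19.7, 35.9 and 21.1, and 44.2 and 19.3 in the other 3 libraries, past it. TUBB, which was within 1.5-fold at D22 and D10_dSMADi, was past it higher at D5_dSMADi (log2 0.79), D5_XAV939 (0.74) and D10_XAV939 (0.67). TUBA1A was level at D5, at 827 and 879 CPM at D5_dSMADi and 1135 and 1131 at D5_XAV939, and at D10 it was at 742 and 1290 CPM at D10_dSMADi, past 1.5-fold lower, and 1460 and 1747 at D10_XAV939. TUBB3 was past 1.5-fold lower in the dividing cells of all 4 libraries, with log2 ratios of -0.86, -0.72, -2.10 and -2.33. The STMN2-high cells described below held 12.5% of the TUBB3 UMIs of D10_dSMADi and 42.1% of those of D10_XAV939. How many of these cells fell in each division set was not counted, and their part in the D10 ratios was not tested. Of 9 members at 10 CPM, 4 were thus past 1.5-fold higher and 1 lower at D5_dSMADi, against 6.37% and 1.73% of 8072 genes, and 5 and 1 at D5_XAV939, against 6.09% and 1.18% of 8228. At D10_dSMADi they were 4 and 2, against 6.11% and 2.37% of 8704, and at D10_XAV939 5 and 1, against 5.54% and 3.41% of 8766. These calls were made after the D22 values were seen. At D0, 998 of 1008 cells passed the gate and 1 had no marker UMI, so no comparison was made there.

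Within the D22 cells that had no MKI67 or TOP2A UMI, 2939 cells had 10 or more UMIs of STMN2, a tubulin-binding protein of growing axons, and 1620 had 0 or 1. Their median depths were 11742 and 11768.5 UMIs. This split was added after the D10 values were seen. Of 8 members at 10 CPM, 4 were past 1.5-fold higher in STMN2-high cells and 2 past it lower, against 12.3% and 5.31% of 8073 genes. TUBB2A was at 333 CPM in STMN2-high and 63.4 in STMN2-low cells (log2 2.39, 2.31 to 2.48), TUBB2B at 1745 and 825 (1.08, 1.05 to 1.11) and TUBA1A at 4529 and 2543 (0.83, 0.82 to 0.85). TUBB3 was at 41.0 and 23.5 CPM (0.81, 0.65 to 0.96). TUBA1B, at 317 and 564 CPM (-0.83, -0.87 to -0.80), and TUBA1C, at 10.7 and 20.4 (-0.93, -1.14 to -0.73), were lower in the STMN2-high cells. TUBB had a log2 ratio of 0.46, within 1.5-fold. It was past it, at 0.92, with each cell thinned to 1500 UMIs and the gates set again on the thinned counts. These gates then held 719 STMN2-high and 4735 STMN2-low cells, so the 2 ratios are of different cells. The division markers were at 67.1 and 116 CPM in these sets, and their part in the difference was not tested. So, among cells that passed no division gate, those with more STMN2 also held more of the neuronal isotypes and less of TUBA1B and TUBA1C.

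At D10, STMN2-high cells were few, with 19 at D10_dSMADi and 74 at D10_XAV939, against 2367 and 2055 STMN2-low cells. TUBB3 was the member that differed most there. It was at 4151 CPM in the STMN2-high and 159 in the STMN2-low cells of D10_dSMADi (log2 4.71, 4.63 to 4.78), and at 3031 and 141 in those of D10_XAV939 (4.42, 4.37 to 4.47). TUBB3 made up 44.1% and 50.2% of the beta-tubulin UMIs of the STMN2-high cells, and the median such cell had 4764 and 3442 CPM. With the newer annotation, which does not list the readthrough gene, TUBB3 was thus the leading beta-tubulin of the STMN2-high cells. The 19 cells held 1803 TUBB3 UMIs in all, and no cell held more than 8.32% of them.

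TUBA1A was at 8567 and 807 CPM in STMN2-high and STMN2-low cells of D10_dSMADi (log2 3.41, 3.36 to 3.46) and at 4872 and 1392 in those of D10_XAV939 (1.81, 1.78 to 1.84). TUBB2B was at 2263 and 284 CPM (3.00, 2.90 to 3.09) and at 1030 and 354 (1.54, 1.47 to 1.61). TUBB2A was at 566 and 75.6 CPM (2.91, 2.72 to 3.09) and at 209 and 65.0 (1.69, 1.53 to 1.84). All 3 neuronal isotypes were higher in the STMN2-high cells of both libraries. TUBB4A was low but followed them, at 69.1 and 3.65 CPM and at 16.8 and 2.98. TUBA1B was lower, at 1013 and 1660 CPM (-0.71, -0.85 to -0.58) and at 1029 and 2273 (-1.14, -1.21 to -1.08).

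In D10_dSMADi all 10 members reached 10 CPM, 6 of them past 1.5-fold higher and 1 past it lower, against 28.3% and 24.7% of 9671 genes. TUBB, 1 of the 6 (log2 0.70), was within 1.5-fold when mitochondrial and ribosomal protein genes were left out of the library total. In D10_XAV939 it was 5 higher and 4 lower of 10, against 16.6% and 20% of 9246 genes. TUBB4A was counted as higher in both, with 30 and 32 UMIs in the STMN2-high cells, and reached 10 CPM only there. TUBA1C, TUBB4B and TUBB6 were past 1.5-fold lower in D10_XAV939, with log2 ratios of -1.20, -0.79 and -1.04, and not in D10_dSMADi, at -0.25, -0.04 and -0.26, and the difference between the libraries was not tested. For 2 of the 3 it depended on the setting: with STMN2 at 20 or more UMIs against 0, TUBA1C (-2.45) and TUBB6 (-0.84) were past 1.5-fold lower in D10_dSMADi too, and with cells thinned and gated again TUBA1C was (-2.58). In the 19 cells of D10_dSMADi, 1 cell held 63.8% of the TUBA1C UMIs, 42.0% of those of TUBB4B and 31.6% of those of TUBA1B. Division markers summed to 780.5 and 1118 CPM in STMN2-high and STMN2-low cells of D10_dSMADi and to 572 and 1368 in D10_XAV939, and their part was not tested.

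From D0 to D5 under dual SMAD inhibition, 1 of 9 members was past 1.5-fold higher, against 18.1% of 8988 genes, and 4 were past it lower, against 28.8%. The median log2 ratio was -0.31 for the members and -0.12 for all genes. TUBA1A was the member that was higher (log2 1.15, 1.13 to 1.17). TUBB3 (-1.44, -1.49 to -1.40), TUBB2A (-1.16, -1.21 to -1.10), TUBB6 (-0.98, -1.05 to -0.91) and TUBA1C (-0.79, -0.82 to -0.77) were lower. TUBA1B and TUBB, the most abundant members, were within 1.5-fold, at -0.27 and -0.25. Summed over the 10 genes the log2 ratio was -0.17.

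From D5 to D10, TUBB3 alone among 9 members passed 1.5-fold without XAV939 (log2 1.29, 1.24 to 1.33), and no member was past it lower, against 14.2% and 3.28% of 8619 genes. TUBB2A, at 0.58 (0.53 to 0.64), sat at the limit and passed it with each cell thinned to 10000 UMIs, without the deepest 5% of cells, and with no filter on cells. TUBB4B, at 0.53, also passed it with no filter on cells. With XAV939, 3 of 9 were past 1.5-fold higher and none lower, against 12% and 3.55% of 8643 genes: TUBB3 (1.82, 1.78 to 1.86), TUBB2A (1.45, 1.37 to 1.52) and TUBB2B (0.91, 0.88 to 0.93). TUBB3 and TUBB2A thus had their lowest level of the pooled run at D5 in both arms. In the STMN2-low cells of D10_XAV939 alone, TUBB3 was at 141 CPM, beside 237 over all cells of that library and 67.1 at D5_XAV939.

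XAV939 was compared with dual SMAD inhibition alone on the same day, which asks how lowering Wnt signalling changes the cells. At D5, 0 of 9 members were past 1.5-fold higher and 1 past it lower, against 3.08% and 1.76% of 8181 genes. The member was TUBB2A, at 25.6 CPM with and 52.1 without XAV939 (log2 -1.02, -1.10 to -0.95). TUBA1A was at 1109 and 829.7 CPM (0.42, 0.40 to 0.43) and TUBA1B at 1773 and 1464 (0.28, 0.27 to 0.29).

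At D10, 1 of 9 was past 1.5-fold higher with XAV939 and 0 lower, against 3.67% and 3.68% of 8713 genes. It was TUBA1A, at 1509 and 852 CPM (log2 0.82, 0.81 to 0.84). TUBA1B was at 2230 and 1656 CPM (0.43, 0.42 to 0.44), TUBB3 at 237 and 183 (0.37, 0.34 to 0.41) and TUBA1C at 145 and 190.0 (-0.39, -0.43 to -0.35). TUBB2A, which was lower at D5, was at 69.9 and 78.1 CPM (-0.16, -0.22 to -0.10). TUBA1A was the member with the highest ratio on both days. The 10 genes summed to a log2 ratio of 0.20 at D5 and 0.41 at D10. STMN2-high cells were 19 of 2416 and 74 of 2168 at D10, and division markers were at 1119 CPM without and 1346 with XAV939. In the STMN2-low cells alone TUBA1A was at 1392 CPM with and 807 without XAV939 (0.79, 0.77 to 0.80). TUBB3 turned there, at 141 CPM with and 159 without (-0.17, -0.21 to -0.13), and the 74 STMN2-high cells held 5791 of the 13758 TUBB3 UMIs of D10_XAV939 (42.1%). The other 8 members kept the sign they had over all cells.

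From D22 to D24, all 10 members passed 1.5-fold, 6 of them higher, against 17.7% of 8453 genes, and 4 lower, against 24.8%. TUBB4A, TUBA1C and TUBB6 reached 10 CPM on 1 side only, so they could be counted only through the day on which they were high. The members' median log2 ratio was 1.17 and that of all genes -0.11. TUBB2A (3.46, 3.44 to 3.48), TUBB4A (3.39, 3.25 to 3.54), TUBA1A (1.59, 1.59 to 1.60), TUBB2B (1.46, 1.45 to 1.47), TUBB3 (1.44) and TUBB (0.90, 0.89 to 0.91) were higher. TUBA1B (-1.41, -1.43 to -1.39), TUBB4B (-1.46, -1.50 to -1.42), TUBB6 (-3.14, -3.40 to -2.90) and TUBA1C (-5.54, -5.83 to -5.27) were lower. The 4 that were lower at D24 were the 4 that were higher in dividing D22 cells, but both ratios use the same D22 UMIs. How many of all genes did the same was not counted, so this overlap is not a result about the tubulins. The dividing gate held 2043 of 9523 cells at D22, 47 of 9107 at D24 and 7 of 11056 at D26, and its part in the D24 values is not removed in these ratios. In the D22 cells with no MKI67 or TOP2A UMI alone, TUBA1B was at 392 CPM, TUBB4B at 114, TUBA1C at 15.2 and TUBB6 at 3.90, beside 452, 94.1, 1.57 and 2.04 CPM in the D24 library. TUBA1A was at 3565 CPM there against 9672 at D24, and TUBB2A at 203 against 1675.

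From D24 to D26, 1 of 8 members was past 1.5-fold higher, against 29.3% of 8391 genes, and 1 past it lower, against 4.55%. They were TUBB4A (0.84, 0.78 to 0.91) and TUBB3 (-0.64, -0.70 to -0.59). TUBB2B was just below the limit at 0.58 (0.57 to 0.59), TUBA1A was level at -0.04 (-0.05 to -0.04), and the members' median was 0.21 beside 0.34 for all genes. TUBA1C, at 1.57 and 2.89 CPM (0.88, 0.56 to 1.21), and TUBB6, at 2.04 and 0.704 (-1.53, -1.97 to -1.11), were under 10 CPM on both days and were not counted.

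**Figure D5:**
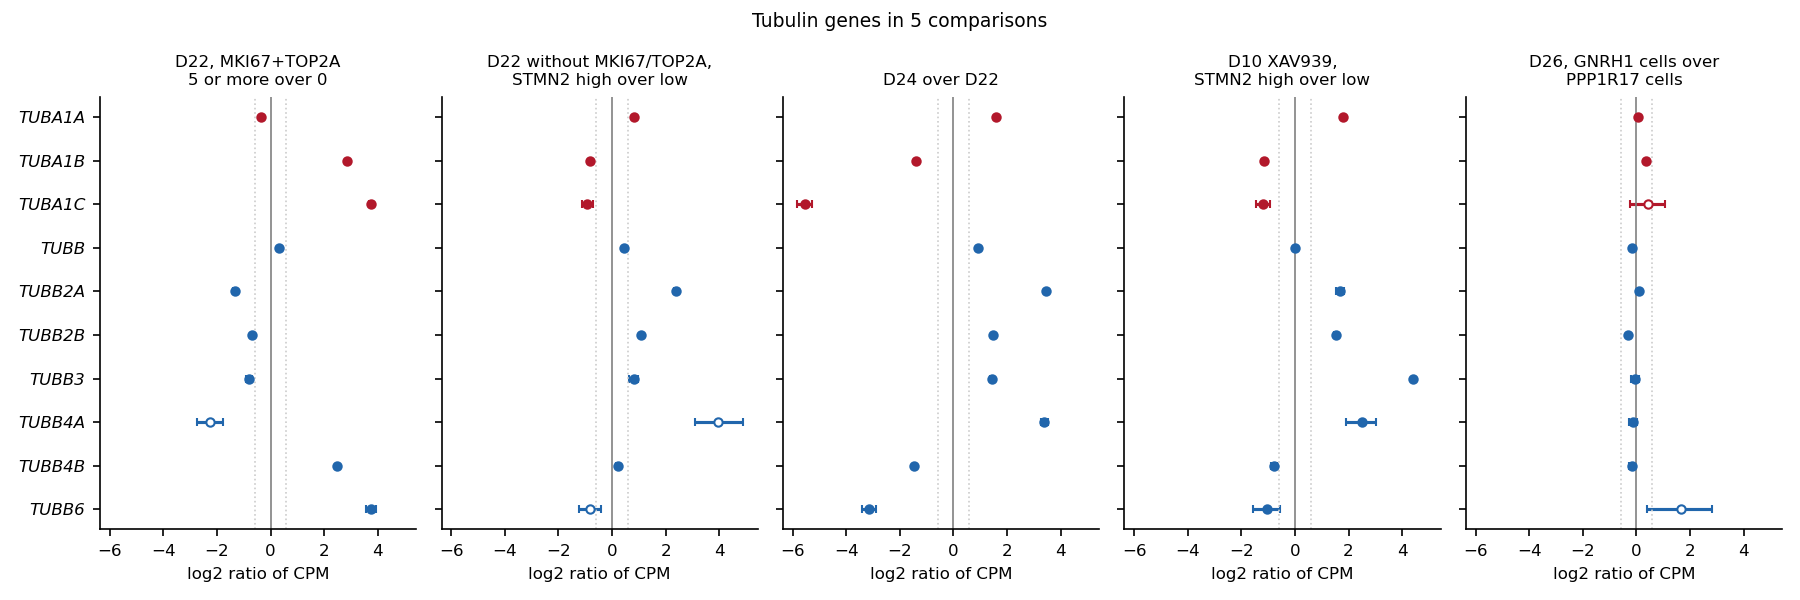
Log2 ratio of CPM for each tubulin gene in 5 comparisons, with alpha-tubulins in red, beta-tubulins in blue, 95% counting intervals as bars and 1.5-fold as dotted lines; open points mark members under 10 CPM on both sides. The points spread widest for D24 over D22, from -5.54 for TUBA1C to 3.46 for TUBB2A, and those of the GNRH1 comparison at D26 lie within 1.5-fold but for TUBB6, an open point.

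GnRH neurons were compared with the neurons that carried PPP1R17, a marker of the glutamatergic neurons in these cultures. Cells with 10 or more GNRH1 UMIs and no PPP1R17 numbered 333 at D24 and 875 at D26, and cells with 2 or more PPP1R17 UMIs and at most 1 of GNRH1 numbered 3864 and 5686. The sum of 5 glutamatergic markers, PPP1R17 among them, was 65.3 and 30.2 CPM in the GNRH1 cells of D24 and D26 and 1413 and 1336 in the PPP1R17 cells. PPP1R17 was also part of the gate, so part of this difference was set by the gate. At D24 0 of 8 members were past 1.5-fold in either direction, against 4.5% of 7725 genes higher and 14.3% lower. At D26 it was again 0 of 8, against 4.61% of 8476 genes higher and 9.26% lower. TUBB2B was at 2465 CPM in GNRH1 cells and 3267 in PPP1R17 cells at D24 (log2 -0.41, -0.44 to -0.37) and at 3779 and 4676 at D26 (-0.31, -0.32 to -0.29). TUBA1A was at 9842 and 9830 CPM (0.00, -0.02 to 0.02) and at 9758 and 9297 (0.07, 0.06 to 0.08), and TUBA1B at 485 and 448 (0.11, 0.03 to 0.19) and at 711 and 558 (0.35, 0.31 to 0.39). TUBB4B was at 68.9 and 97.3 CPM (-0.50, -0.72 to -0.29) at D24 and at 118 and 133 (-0.18, -0.28 to -0.08) at D26. The summed 10 genes differed by -0.09 and -0.04. Each member at 10 CPM was thus within 1.5-fold between the GNRH1 cells and the PPP1R17 cells. TUBA1C and TUBB6 had 1 to 128 UMIs in each of these sets and give no usable ratio. Division markers summed to 6.78 CPM in GNRH1 and 54.7 in PPP1R17 cells at D24. They summed to 4.25 and 9.46 CPM at D26, and their part was not tested.

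Tubulin proteins need the CCT chaperonin and the folding cofactors TBCA to TBCE to become dimers, gamma-tubulin rings to start new microtubules, and enzymes that alter the tails. Of the 9 folding cofactors listed only 8 were matched by symbol, so the counts below do not cover that full list. In dividing against non-dividing D22 cells, 4 of 9 gamma-tubulin ring genes at 10 CPM were past 1.5-fold higher and 1 lower, beside 14% and 12.4% of all genes. At the ends were MZT1, which recruits the ring, at 279 and 65.1 CPM (log2 2.10, 2.05 to 2.15), and TUBGCP4 at 52.3 and 80.5 (-0.62, -0.70 to -0.55). Of 10 tail-modifying enzymes 2 were higher and 3 lower, from AGBL5 (0.60, 0.47 to 0.74) to SIRT2 (-1.02, -1.20 to -0.84). None of 8 CCT subunits passed 1.5-fold, and of 6 folding cofactors 0 were higher and 2 lower. From D22 to D24, 0 of 8 CCT subunits were higher and 3 lower, beside 17.7% and 24.8% of all genes, the lowest being CCT7 at 115 and 226 CPM (-0.97, -1.01 to -0.94). Of 6 folding cofactors 2 were higher and 0 lower, with TBCB, which acts on alpha-tubulin, at 415 and 208.5 CPM (0.99, 0.97 to 1.02). Of 11 tail-modifying enzymes 4 were higher and 0 lower, with the polyglutamylase subunit TTLL1 at 31.3 and 13.0 CPM (1.27, 1.18 to 1.36). Of 8 gamma-tubulin ring genes 1 was higher and 2 lower. Their ends were TUBGCP4 at 153 and 69.7 CPM (1.13, 1.09 to 1.18) and NEDD1 at 7.00 and 24.3 (-1.80, -1.94 to -1.66), the latter counted only through D22.

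From D0 to D5, 4 of 8 CCT subunits were lower and 0 higher, beside 28.8% and 18.1% of all genes, with CCT5 at 253 and 552 CPM (-1.13, -1.15 to -1.10). In the D10 STMN2-high cells, 8 of 13 tail-modifying enzymes were higher and 4 lower in D10_dSMADi, beside 28.3% and 24.7% of all genes, and 3 of 11 were higher and 3 lower in D10_XAV939, beside 16.6% and 20%. At one end, TTLL7, a glutamylase of beta-tubulin in neurons, was at 78.3 against 7.77 CPM in D10_dSMADi (3.33, 2.79 to 3.83) and at 49.7 against 14.3 in D10_XAV939 (1.80, 1.48 to 2.11). At the other, TTLL4 was at 0 against 11.01 CPM in D10_dSMADi, with an upper limit of -0.37 on the log2 ratio, and TTLL12 at 6.28 against 12.95 CPM in D10_XAV939 (-1.04, upper limit -0.23). Both limits lie within 1.5-fold, so counting error alone leaves these calls uncertain. The 19 STMN2-high cells of D10_dSMADi held 434357 UMIs in all, so a gene at 10 CPM there had only a few UMIs. The counts of 8 and 4 of 13 are uncertain for the same reason. In D10_dSMADi, TTLL7 reached 10 CPM only in the STMN2-high cells, so it could be counted only through the set where it was high. TTLL4, and TTLL12 in D10_XAV939, reached it only in the STMN2-low cells. Over the whole D10_dSMADi library 10 of the 17 enzymes listed reached 10 CPM, fewer than the 13 counted between the STMN2 sets. Of the 13 other tubulin genes, 2 or 3 reached 10 CPM in each comparison. Among them TUBA4A was at 38.2 CPM at D0 and 0.64 at D5_dSMADi (-5.90, -6.33 to -5.50), and it was counted only through D0. With XAV939 at D10 only TTLL7, at 15.5 against 8.11 CPM (0.93, 0.78 to 1.08), passed 1.5-fold in these lists, beside 3.67% of all genes higher and 3.68% lower. TTLL7 reached 10 CPM only with XAV939 there, so it could be counted only through the library where it was high. With 1 library per condition these counts describe the libraries and are not tests of the lists.

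The genes whose pattern over the 8 libraries was most like that of a member were found by Pearson correlation of log2(CPM + 10) over 4880 genes. The correlation compares the shape of a pattern and not the level or the size of a change. For TUBA1A they were CASTOR3 (r = 0.996), TAGLN3 (0.996), a neuronal calponin-family protein, and ASNSD1 (0.995). For TUBA1B they were CLINT1 (0.997), CALD1 (0.99) and KPNA2 (0.99), an importin. For TUBB4B they were MRPS22 (0.994), RTCB (0.993) and KPNA2 (0.992). TUBB3 was left out here, since its levels cannot be compared across the runs. ASNSD1, for one, was at 33.8 CPM at D0 and 56.3 at D24, where TUBA1A was at 374 and 9672. The 8 points share the 2 annotations and the depth of their libraries, so the correlations describe these libraries. They also span both sets of runs, so the difference between early and late libraries enters each correlation, and its part was not tested.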

How the data were processed

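Single-cell 3′ libraries of WA09 cells were sequenced on the 10x Genomics platform, 5 of them tagged, pooled and run as 1, and 3 run singly. The deposited values are raw UMI counts per gene and cell, which the authors made with Cell Ranger (6.1.2 for the pooled run and 3.1.0 for D22 to D26, per the file headers) on GRCh38. The 12 tag rows of the pooled run were left out. Cells were kept by the study's limits on UMIs, genes, complexity and mitochondrial share. The stated lower limit of 0.85 on complexity at D0 left 1 barcode, so it was read as an upper limit, a choice made after seeing the data. No doublet caller was run, and an alternative left out the deepest 5% of cells.

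UMIs were summed over cells (Python 3.11.15, numpy 2.4.6, scipy 1.17.1) and given as CPM with exact Poisson intervals, shares with exact Clopper-Pearson intervals, and ratios with intervals from the exact binomial split, all at 95% and for counting error only. With 1 library per condition there was no test. A member was called past 1.5-fold where either side reached 10 CPM, and the background percentage applies the same rule to all genes. The scripts were tested on simulated data. Cells were thinned to 10000 UMIs in the pooled run and 1500 in D22 to D26 for shares of cells with a UMI of a gene, in sets gated before thinning. Shares of cells by TUBA1A against TUBA1B used unthinned counts. For ratios with cells thinned, the gates were set again on the thinned counts. Every member was described; other genes were named as the ends of their list in a comparison or the 3 nearest in pattern among genes at 50 CPM. Members and lists were chosen with earlier results of these data known. Gene positions are from GENCODE and promoters from RefSeq.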

Additional observations from a re-analysis of the deposited data

Results flagged for a closer look

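TUBB2B, TUBB3 and TUBB6 had ratios of XAV939 over dual SMAD inhibition alone that lay on opposite sides of 0 on the 2 days. TUBB2B had a log2 ratio of -0.34 at D5 and 0.35 at D10. TUBB3, a beta-tubulin of young neurons, had -0.16 at D5 and 0.37 at D10, and among the STMN2-low cells of D10 it had -0.17, the 74 STMN2-high cells of D10_XAV939 holding 42.1% of its UMIs there. TUBB6 had -0.12 at D5 and 0.34 at D10. All 6 ratios were within 1.5-fold, each rests on 1 library per condition, and the difference between the days was not tested.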

How the results depend on the processing

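No paired analysis was possible because each condition is 1 library. Each of 130 ratios was computed again under the settings on all cells or genes, and settings of 1 gate or gene touched 6 to 20 of them. At first 61 were past 1.5-fold, 52 of them in members at 10 CPM. With mitochondrial and ribosomal protein genes left out of the library total, 1 was lost (TUBB in D10_dSMADi STMN2-high cells). Thinned cells were gated again on their thinned counts. With cells thinned, 2 were lost (TUBB3 in dividing D22 cells, TUBB6, under 10 CPM, in D26 GNRH1 cells) and 3 gained (TUBB in D22 and TUBA1C in D10_dSMADi STMN2-high cells, TUBB2A from D5 to D10), of 127. With no cell filter 2 were gained (TUBB2A and TUBB4B from D5 to D10), without the deepest cells 1 was lost and 1 gained, and with the D0 complexity limit dropped, an alternative added after seeing the data, none changed. The summed log2 ratio of D10_XAV939 over D10_dSMADi, 0.41, became 0.37 with no cell filter, 0.43 without the deepest cells, 0.39 thinned and 0.37 without mitochondrial and ribosomal protein genes. That of D24 over D22, 1.24, became 1.26 without the deepest cells, 1.28 thinned and 1.15 without those genes. That of dividing over non-dividing D22 cells, 0.38, became 0.40, 0.58 and 0.33 in the same order, and 0.34 and 0.43 with the gate at 3 and at 10 UMIs. After thinning, the gate held 395 and 7551 cells. With close paralogs merged, members lower at D24 went from 4 to 2 and members higher in dividing cells from 4 to 2, because TUBA1B and TUBA1C were summed with TUBA1A, which differed the other way: the merged alpha-tubulins had log2 1.18 for D24 over D22 and 0.55 in dividing cells. At a fold of 2, members lower in dividing cells went from 3 to 1. TUBB6 in D26 GNRH1 over PPP1R17 cells, 10 against 21 UMIs, turned from 1.66 to -0.05 when thinned. The stricter STMN2 gates moved TUBA1C in D10_dSMADi by 2.20 and gained 2 calls. Causes were not tested. The TUBB3 level in D22 to D26 and ratios of members under 10 CPM are the least certain.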

Other observations

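The number of the 10 genes seen in a cell was also counted. The median cell had UMIs of 9 members at D0, 8 in each D5 and D10 library and 6 in D22, D24 and D26. With cells thinned to 1500 UMIs, the median was 4 members at D22 and 5 at D24 and D26, and with cells thinned to 10000 UMIs it was 8 at D0, 6 in both D5 libraries and 7 in both D10 libraries.

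The 47 cells of D24 with 5 or more MKI67 and TOP2A UMIs had 10385 CPM of the 10 genes, against 17952 in the 8983 cells with none. In the median such cell 61.8% of the UMIs of TUBA1A and TUBA1B came from TUBA1A, against 96.1% in the cells with none.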
